A study of Mus musculus with 4 samples.

Results

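Satellite glial cells (SGCs) were studied here as the cells with high *Apoe* and *Fabp7* in single-cell RNA sequencing of sorted cells from lumbar dorsal root ganglia (DRGs). Members were chosen by measured values of these 2 genes. A cell was a member when it had at least 1000 detected genes, at most 10% of its unique molecular identifiers (UMIs) from mitochondrial genes, at least 300 *Apoe* UMIs per 10000 UMIs (CP10K), and at least 30 CP10K of *Fabp7*. Of 23691 barcodes 18994 passed the limits on genes and mitochondrial UMIs, and 745 of these were members. The series holds 4 libraries, the sham-operated males (Male-Sham) and females (Female-Sham), then injured males (Male-CCI) and injured females (Female-CCI), and every series of 4 values below keeps that order. They came from heterozygous *Pirt*EGFPf mice, in which membrane-anchored EGFP stands in place of the *Pirt* reading frame under the *Pirt* promoter, on a C57BL/6 background and 7 to 8 weeks old. Both sciatic nerves were loosely ligated, the chronic constriction injury (CCI) model of neuropathic pain, or exposed in sham surgery. At day 7 the L4-5 DRGs of 5 mice, 20 ganglia in all, were pooled for each library and sorted for GFP.

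SGCs are the flat glia that wrap each sensory neuron body in a ganglion. They buffer potassium, take up glutamate and convert it to glutamine, share ions through gap junctions, and make large amounts of the lipid carrier apolipoprotein E. After nerve injury they are known to become reactive, to couple more strongly, and to release factors that act on the neurons they wrap. *Pirt* is active in sensory neurons, so the sort did not aim at SGCs, the labels name the cell type as neuron, and the study's limit of 1500 genes per cell was meant to remove them. The SGCs described are therefore only those that passed a sort for neurons. Male and female littermates had the same surgery, so litter and surgery cannot be told apart.

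There were 210, 279, 117, and 139 members among 4159, 6878, 3478, and 4479 passing cells. These are 5.05% (95% exact binomial interval 4.40 to 5.76), 4.06% (3.60 to 4.55), 3.36% (2.79 to 4.02), and 3.10% (2.62 to 3.65) of the passing cells, and the intervals cover counting error only. The 2 injured libraries had the lowest shares, although the Female-Sham and Male-CCI intervals overlapped. The mitochondrial limit removed more CCI cells. Of the *Apoe*+ *Fabp7*+ cells with at least 1000 genes it removed 9.87%, 16.0%, 25.9%, and 27.2%. With a limit of 20%, chosen after the data were seen, the shares were 5.24%, 4.45%, 4.24%, and 3.97%. With at least 1500 genes, the limit of the study, they were 4.63%, 2.25%, 3.201%, and 2.48%, and Female-Sham was then the lowest. A two-sided exact permutation test of the 2 CCI against the 2 sham libraries gave p = 0.333, the smallest that this design can give, and p = 1 with at least 1500 genes. Fewer cells, less capture, and less GFP on them cannot be told apart.

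Members were small cells in RNA content. Their median was 5062, 3418, 5055, and 4222 UMIs per cell and 2057.5, 1531, 2094, and 1805 genes. Neurons, defined as passing cells with under 100 CP10K of *Apoe* and at least 1 UMI of both *Tubb3* and *Snap25*, had medians of 46806, 33307, 57445.5, and 44516 UMIs. The 5 members nearest the *Apoe* limit had 300.4 to 303 CP10K and the 5 cells just outside 277 to 297 CP10K. For *Fabp7* the values were 30.4 to 32.9 CP10K inside and 27.2 to 29.8 CP10K outside. Few members were near the limits, 62 within 2-fold of the *Apoe* limit and 64 within 2-fold of the *Fabp7* limit. Over the deposited barcodes 1085 occurred in more than 1 library, and 0 of these were members in both.

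The profile of the members was glial. UMIs were summed over the members of a library and scaled to a common total (CPM, UMIs in 1000000), a scale on which each gene is compared with itself. *Apoe* (chr7:19696109-19699188, GRCm38) stood at 100100.0, 111652, 92501, and 97752 CPM and *Fabp7*, a fatty acid binding protein of glia (chr10:57784881-57788450), at 15103, 15684, 14366, and 15063 CPM, and these 2 genes chose the cells. *Ednrb*, the endothelin B receptor (chr14:103814625-103844402), which the choice did not use, stood at 967, 948, 1178, and 1206 CPM in members and at 12.6, 14.0, 13.3, and 14.6 CPM in neurons. *Gpr37l1*, an orphan receptor of glia (chr1:135160234-135167681), was at 847, 739, 1002, and 799 CPM in members and 9.72, 10.2, 9.36, and 9.48 CPM in neurons. Both receptors were thus high in every library of members and low in every library of neurons. With each cell thinned to 1500 UMIs, *Ednrb* was found in 70.0%, 70.3%, 75.2%, and 81.3% of members and in 1.82%, 2.16%, 2.11%, and 2.20% of neurons. Before thinning it was found in 94.3%, 91.8%, 97.4%, and 96.4% of members and, at their greater depth, in 19.4%, 21.0%, 24.5%, and 23.6% of neurons.

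The 20 genes with the highest CPM among those at 10 or more times the neuronal level included *Dbi*, the acyl-CoA binding protein, *Cst3*, a secreted protease inhibitor, *Sparc*, a matrix protein, *Gpm6b*, and *Ptn*, a secreted growth factor. *Dbi* was at 14070.1, 14759.8, 12888, and 11335 CPM. The neural crest glia factor *Sox10* was at 169, 203, 231, and 197 CPM, *Sox2* at 206, 259, 247, and 222 CPM, and *Foxd3* at 118, 145, 161, and 188 CPM, against 2.86, 3.82, 3.43, and 2.92 CPM of *Sox10* in neurons. All 14 genes of the SGC identity list, which leaves out the choosing genes, were found in all 4 libraries.

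Markers of other cells were mostly low. The Schwann cell myelin genes *Mag*, *Prx*, and *Ncmap* were found in 2, 2, 3, and 0, in 5, 1, 5, and 0, and in 3, 1, 0, and 0 members. *Mbp*, a myelin gene that SGCs are known to share, was at 332, 324, 366, and 321 CPM. The 8 endothelial and pericyte genes summed to 4.55, 8.73, 2.93, and 4.44 CPM, and 4 of them were at 0. The 17 genes of macrophages and other immune cells summed to 651, 262, 80.5, and 451 CPM, with *Cd3e* at 0 and *Ptprc* in 3, 2, 0, and 0 members. This immune RNA came from few cells, since 195, 270, 107, and 131 members had none, and 6, 3, 2, and 3 members exceeded 10 CP10K.

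**Figure D1:**
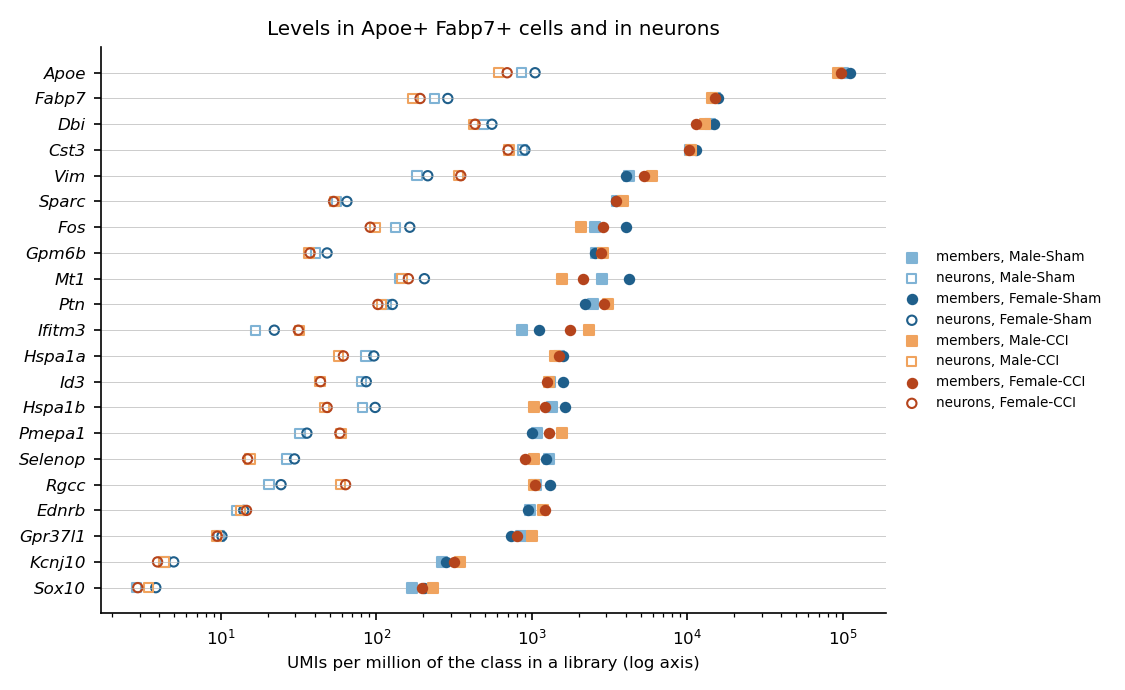
CPM (log axis) in each library is plotted for members (filled) and neurons (open), for 17 of the 20 genes of the profile and 4 further SGC genes. For each gene plotted all 4 members' values lie to the right of all 4 neuronal values, and *Gpr37l1* in neurons is at 9.36 to 10.2 CPM.

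Neuronal RNA was present in the members and was measured so that it could be kept apart. The median of member CPM over neuron CPM across 16 neuronal genes was 12.7%, 11.6%, 5.81%, and 12.01%, lowest in Male-CCI. Members with over 10000 UMIs numbered 24, 8, 7, and 5, and without them the fraction was 6.63%, 6.84%, 3.93%, and 6.70%. No doublet caller was run, and free RNA and neuron-glia pairs cannot be told apart by this fraction. For each gene the UMIs expected from neurons were computed from the fraction and the neuronal profile. Genes with under 20% expected neuronal UMIs are called glial here, those with 50% or more mainly neuronal. The name glial says only that little neuronal RNA was expected. Genes of other cells, such as the immune genes *Pf4*, *Ccl12*, and *Cd74*, also fall under it.

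CCI was compared with sham by edgeR's quasi-likelihood test on the summed UMIs of 2 CCI and 2 sham libraries, with Benjamini-Hochberg adjusted p-values. A gene was called at an adjusted p below 0.05 and an absolute log2 change above 0.5. Sex is the replicate, and the p-values measure only the spread between these libraries. Of 8369 genes tested, 191 (2.28%) were called, 99 higher (1.18%) and 92 lower (1.10%). All 191 had the same direction in both sexes, but the call nearly ensures this, since the sexes are its replicates. Over all genes tested 33.6% were higher in both sexes and 26.4% lower. The number rested most on Female-CCI, since 424 genes were called without that library. Among 6518 glial genes 139 were called (2.13%), 86 higher (1.32%) and 53 lower (0.813%), and without Female-CCI there were 269. Members showed fewer calls than neurons, where 4994 of 17499 genes were called (28.5%), but neurons had far more UMIs and this difference in number was not tested.

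SGC identity genes were not called. Of 14 genes tested 0 were called by edgeR and 0 by DESeq2, 8 had an unadjusted edgeR p under 0.05, and the median log2 change was 0.16, against -0.003 over all genes tested. Both CCI libraries lay above both sham libraries for 6 of the 14 (25.1% over all genes) and below them for 2 (19.7%). *Ednrb* and *Foxd3*, with the values above, lay higher in both CCI libraries (edgeR adjusted p = 0.174 and 0.253), and *S100b*, a calcium-binding protein of glia at 407, 445, 385, and 315 CPM, lay lower (edgeR adjusted p = 0.212). *Sox2* overlapped between surgeries. The list of Notch and glial signalling genes holds *Id* genes, *Nfia*, and *Nfib* beside genes of the Notch pathway, which maintains glial fate. Of its 13 tested genes 0 were called by edgeR and 0 by DESeq2, 5 had an unadjusted edgeR p under 0.05, and the median was 0.02. For 5 of the 13 both CCI libraries lay above both sham libraries and for 5 below. *Hey2*, a Notch target, was at 215, 203, 275, and 251 CPM, higher in both CCI libraries. *Hes1*, another target, was at 195, 247, 192, and 155 CPM, lower in both. For the target *Hes5*, at 167, 222, 198, and 237 CPM, sham and CCI overlapped.

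Some cholesterol synthesis genes fell in SGCs after CCI. Of the 22 tested genes of the lipid and cholesterol list, 6 fell (1.10% over all genes) and 2 rose (1.18%), with a median log2 change of -0.22. In neurons 6 of 23 were called lower (13.0% over all genes) and the median was also -0.22. For 11 of the 22 both CCI libraries lay below both sham libraries, against 19.7% of all genes tested. *Msmo1* (chr8:64718139-64733792), a sterol demethylating oxidase, was at 866, 886, 511, and 475 CPM, and it fell, log2 change -0.87 ± 0.11 (SE), edgeR adjusted p = 0.000167. *Idi1*, the isomerase that makes the isoprene unit, was at 701, 762, 449, and 398 CPM and fell, log2 change -0.83 ± 0.12 (SE), edgeR adjusted p = 0.000499. Each CCI library lay below each sham library for both genes, and both were called in 15 of 15 alternatives. In neurons the log2 change of *Msmo1* was -0.53, which passed the limits, and that of *Idi1* was -0.43, under the size limit. The difference between members and neurons was -0.41 ± 0.12 (SE), edgeR adjusted p = 0.0209 for *Msmo1*, which is under the size limit.

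Among the other genes of the list that fell were *Sqle*, the squalene epoxidase (-0.57 ± 0.13), *Lss*, lanosterol synthase (-0.72 ± 0.18), and *Insig1*, the sterol sensor that holds SREBP in the endoplasmic reticulum (-0.76 ± 0.16). Without Male-Sham all 3 lost their call and 2 of the list's genes were called lower. *Sqle* also lost its call without Female-CCI, and *Sqle*, *Lss*, and *Insig1* each lost it after subtraction of expected neuronal UMIs. *Hmgcs1*, the first committed step, was at 1769, 1743, 1416, and 1238 CPM, and its log2 change of -0.44 ± 0.10 missed the size limit although its edgeR adjusted p was 0.02. Outside the list and named after their values were seen, *Fdft1*, squalene synthase, was at 403, 346, 243, and 180.5 CPM and fell, log2 change -0.86 ± 0.14 (SE), edgeR adjusted p = 0.00192. *Erg28*, a scaffold of sterol enzymes, was at 335, 336, 208, and 195 CPM and fell by a similar amount (-0.77 ± 0.13). Both were called in 15 of 15 alternatives.

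The fatty acid synthesis genes of the list were not called. *Fasn*, fatty acid synthase, was at 299, 253, 293, and 203 CPM, and *Scd2*, a desaturase, at 2744, 2635, 3049, and 2818 CPM, and neither was called. The 2 list genes that rose were *Srebf1*, the factor that drives fatty acid synthesis, and *Abca1*, the cholesterol exporter that loads apolipoprotein E. *Srebf1* was at 81.1, 83.8, 165, and 132 CPM, log2 change 0.81 ± 0.17 (SE), edgeR adjusted p = 0.0113, with both CCI libraries above both sham libraries. It lost its call without Male-Sham, without Male-CCI, and after subtraction of expected neuronal UMIs. In neurons its log2 change was -0.32, and the difference between the classes was 1.07 ± 0.20 (SE), edgeR adjusted p = 1.26e-05, called in 5 of 7 alternatives and not when Male-Sham or Female-Sham was left out. *Abca1* was at 90.9, 85.6, 132, and 166 CPM, log2 change 0.71 ± 0.17 (SE), edgeR adjusted p = 0.0252. It lost its call without any 1 of Male-Sham, Female-Sham, and Female-CCI, and after subtraction of expected neuronal UMIs. In neurons it rose, with a log2 change of 2.47, and the difference between the classes was -1.83 ± 0.18 (SE), edgeR adjusted p = 4.99e-18, called in 5 of 7 alternatives and not when Male-Sham or Female-Sham was left out.

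**Figure D2:**
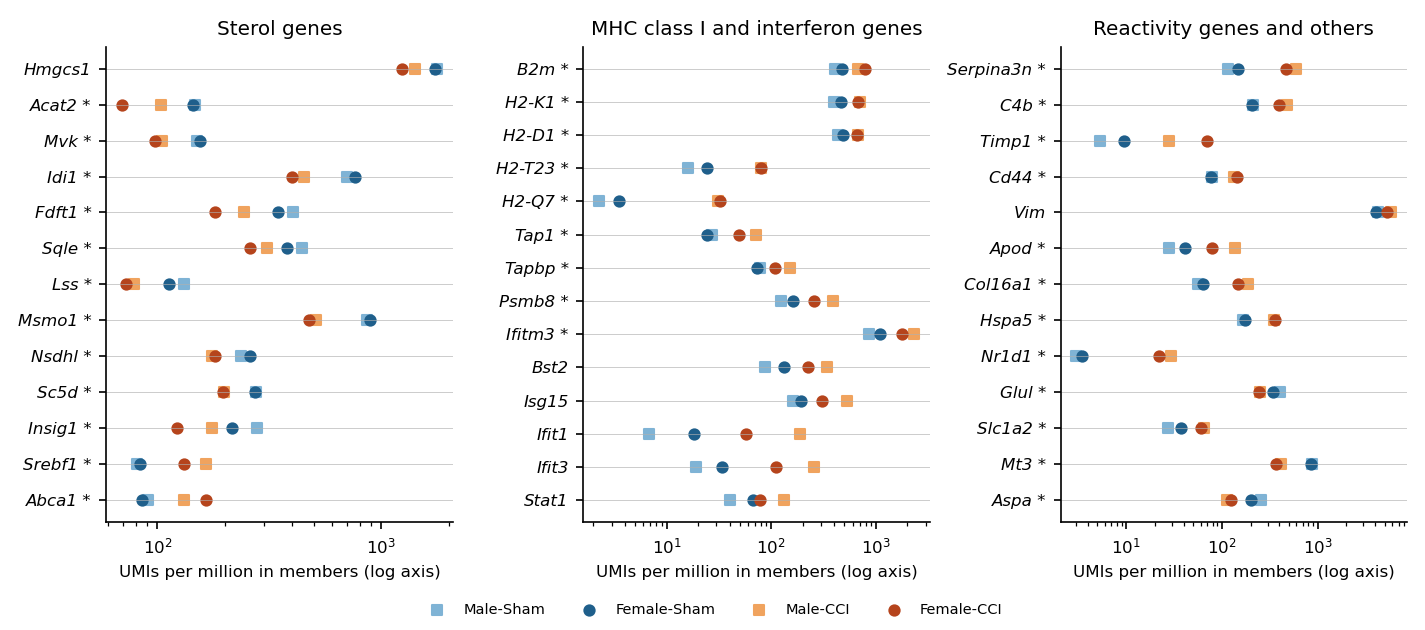
Members' CPM (log axis) in each of the 4 libraries for genes of sterol metabolism, of MHC class I and interferon response, and of reactivity, some of them chosen after their values were seen, with an asterisk at genes called in members. Both CCI libraries lie below both sham libraries for *Msmo1* and *Idi1*, and above them for *Serpina3n*, *C4b*, and *B2m*.

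Genes of glial reactivity rose in part. Of 14 tested genes of the list 4 rose (1.18% over all genes), 0 fell, and the median log2 change was 0.65. In neurons 10 of 18 were called higher (15.5% over all genes) and 1 lower (13.0%), with a median of 0.70. *Serpina3n* (chr12:104406729-104414329), a secreted serine protease inhibitor of reactive astrocytes, was at 117, 148, 595, and 466 CPM, and it rose, log2 change 1.97 ± 0.15 (SE), edgeR adjusted p = 1.09e-06. The lower CCI library was more than 3 times the higher sham library. With cells thinned to 1500 UMIs it was found in 18.6%, 16.5%, 48.7%, and 41.7% of members, and in 24.3%, 23.4%, 22.6%, and 21.5% of neurons. Unthinned, the shares were 41.0%, 31.2%, 74.4%, and 67.6% of members and 89.1%, 88.0%, 87.6%, and 84.6% of neurons. In neurons *Serpina3n* was at 187, 184, 194, and 175 CPM and its log2 change was 0.04 ± 0.06 (SE), edgeR adjusted p = 0.604. The difference between members and neurons was 1.86 ± 0.14 (SE), edgeR adjusted p = 6.34e-29, and it was called in 7 of 7 alternatives.

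*C4b* (chr17:34728380-34743882), complement component 4, was at 213, 206, 484, and 395 CPM and rose, log2 change 1.03 ± 0.13 (SE), edgeR adjusted p = 0.000166, with no overlap. *Serpina3n* and *C4b* were called in 15 of 15 alternatives. *Timp1*, an inhibitor of matrix metalloproteinases, was at 5.31, 9.60, 27.8, and 69.5 CPM and rose, log2 change 2.68 ± 0.50 (SE), edgeR adjusted p = 0.0155, although 3 cells held 35% of its UMIs. It lost its call with at least 1500 genes per cell, at 600 CP10K of *Apoe* and 60 of *Fabp7*, and after subtraction of expected neuronal UMIs. *Cd44*, the hyaluronan receptor, was at 78.8, 76.8, 133, and 145 CPM, log2 change 0.80 ± 0.17 (SE), edgeR adjusted p = 0.0118. It lost its call without Male-Sham, and 22.9% of its UMIs were expected from neurons. The count for the list was 7 without Female-Sham and 7 without Male-CCI.

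Classical reactivity genes behaved unevenly. *Gfap*, the intermediate filament of reactive glia, had 2, 0, 15, and 5 UMIs, too few to be tested, and its CCI over sham ratio was 18.1 (95% counting interval 4.40 to 160.0). *Vim*, a filament gene that SGCs express strongly, was at 4239, 4027, 5874, and 5268 CPM, with a log2 change of 0.39 ± 0.09 under the size limit (edgeR adjusted p = 0.0283). *Stat3* was at 124, 159, 190.2, and 222 CPM and its suppressor *Socs3* at 465, 792, 448, and 781 CPM, and neither was called. *Lcn2* and *Steap4* had 0 UMIs in members of all 4 libraries.

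Some MHC class I and interferon-induced genes rose after CCI. Of 16 tested genes of the list 6 rose (1.18% over all genes), 0 fell, and the median log2 change was 0.98. With sex as a block 4 of them were called, without *Psmb8* and *Ifitm3*. Both CCI libraries lay above both sham libraries for 13 of the 16, against 25.1% of all genes tested. *B2m* (chr2:122147686-122153083), the light chain of MHC class I, was at 411, 473, 676, and 784 CPM and rose, log2 change 0.68 ± 0.13 (SE), edgeR adjusted p = 0.00505, and was called in 15 of 15 alternatives. The heavy chain genes *H2-K1* and *H2-D1* were at 399, 466, 707, and 676 CPM and 435, 483, 672, and 664 CPM and rose, by 0.64 ± 0.12 and 0.50 ± 0.12 on the log2 scale. These 2 share near-identical stretches with other class I genes, so reads may be split between them, and both lost their call without Male-Sham, *H2-D1* also without Female-CCI. *H2-D1* was called in only 6 of 15 alternatives and *H2-K1* in 12 of 15. *Tap1*, a peptide transporter, rose (1.18 ± 0.25) but not without Male-CCI, and *Psmb8*, an immunoproteasome subunit, was at 125, 162, 386, and 259 CPM and rose (log2 change 1.13 ± 0.20 (SE), edgeR adjusted p = 0.0194). *Ifitm3*, an antiviral membrane protein, was at 859, 1108, 2320.5, and 1762 CPM and rose, log2 change 1.01 ± 0.17 (SE), edgeR adjusted p = 0.0285. None of the 4 sham values of *B2m* and *Ifitm3* reached a CCI value of the same gene.

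Several interferon-induced genes varied between the CCI libraries. *Ifit1* was at 6.82, 18.3, 187, and 57.7 CPM and *Ifit3* at 18.9, 34.0, 255, and 111 CPM, highest in Male-CCI, and neither was called (edgeR adjusted p = 0.418 and 0.272). *Isg15* was at 163, 191, 528, and 306 CPM and also missed the call. Without Female-CCI 13 genes of the list were called, and without any 1 of Male-Sham, Female-Sham, and Male-CCI 8, 11, and 9. By the rule for the largest glial rises *H2-Q7*, *Usp18*, *Iigp1*, *Ifit3b*, *Gm4951*, *Gbp5*, and *Oasl2* belong to the same families, and several of these are paralogs. *H2-Q7* was at 2.27, 3.49, 30.7, and 32.5 CPM and rose (log2 change 3.38 ± 0.47 (SE), edgeR adjusted p = 0.000397), from 3, 4, 7, and 11 cells. *Usp18*, which removes ISG15 from proteins, was at 1.52, 4.37, 30.7, and 19.2 CPM and rose (log2 change 3.04 ± 0.55 (SE), edgeR adjusted p = 0.00443). It lost its call without Male-CCI and after subtraction of expected neuronal UMIs. Both alternatives also ended the calls of *Iigp1*, *Gbp5*, and *Oasl2*. *Gbp5* lost its call without either sham library too. Named after its value was seen, *H2-T23*, a nonclassical class I gene, was at 15.9, 24.4, 80.5, and 79.9 CPM and rose, log2 change 1.96 ± 0.25 (SE), edgeR adjusted p = 0.000167.

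The macrophage and immune sum, given above, was lowest in Male-CCI, where *Lyz2* was at 2.93 CPM against 195 CPM in Male-Sham. Without the 14 members over 10 CP10K of immune genes, an alternative chosen after the data were seen, 4 of the 6 interferon and MHC genes kept their call and *H2-K1* and *H2-D1* lost it. *Serpina3n*, *C4b*, and *B2m* stayed called. Some falls rested on few cells. *Pf4*, a platelet and macrophage chemokine, had 77, 35, 0, and 1 UMIs in 6, 4, 0, and 1 members, a CCI over sham ratio of 0.0162 (95% counting interval 0.000406 to 0.0921). *Ccl12*, a monocyte chemokine, had 24, 16, 0, and 0 UMIs and was at least 7.35-fold lower, against a floor of 3 UMIs over both CCI libraries, and it lost its call without Female-Sham. *Calb1* was at least 16.5-fold lower by the same floor, but 3 cells held 93% of its UMIs, and with the 20% mitochondrial limit it lost its call.

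Promoter windows from RefSeq (GRCm38.p6, 250 bases before to 50 after each gene's start) were searched on both strands for GAAANNGAAA, the core of the interferon-stimulated response element, with overlapping matches allowed. Of 14 genes of the interferon and MHC list with a window 7 held it, among them *B2m* and *Ifitm3* of the 6 called genes, against 3.99% of 27025 genes and 3.44% of 32851 windows. For the sterol regulatory element TCACNCCAC, 1 of 14 lipid genes with a window (*Hmgcs1*) held it, against 1.44% of genes. Not every called lipid gene had a window. Those that did, counted in either direction, numbered 6, and 0 of these held it. The windows of *B2m* (chr2:122147437-122147736, plus strand) and *Ifitm3* (chr7:141010695-141010994, minus strand) are shown, since both genes rose and hold the motif, which is in capitals.
B2m: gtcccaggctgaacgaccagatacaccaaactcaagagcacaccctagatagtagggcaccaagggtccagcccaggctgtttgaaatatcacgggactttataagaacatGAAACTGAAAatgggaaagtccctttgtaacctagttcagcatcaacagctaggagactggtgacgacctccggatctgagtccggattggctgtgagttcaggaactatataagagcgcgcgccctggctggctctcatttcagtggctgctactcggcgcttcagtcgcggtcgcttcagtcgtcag
Ifitm3: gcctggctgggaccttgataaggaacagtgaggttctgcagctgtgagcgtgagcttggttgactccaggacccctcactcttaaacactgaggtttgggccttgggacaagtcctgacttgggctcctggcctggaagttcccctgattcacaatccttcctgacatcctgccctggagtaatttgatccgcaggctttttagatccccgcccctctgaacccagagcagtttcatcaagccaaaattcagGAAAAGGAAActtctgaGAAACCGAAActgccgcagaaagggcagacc
The match of *B2m* begins 139 bases before the start, and the matches of *Ifitm3* lie 2 and 19 bases after it. A match describes the letters and no factor was measured here.

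Genes of potassium, glutamate, and gap junction handling were mostly not called. Of 14 tested genes 1 rose (1.18% over all genes) and 1 fell (1.10%), with a median log2 change of 0.23. *Glul*, glutamine synthetase, which closes the glutamate-glutamine cycle, was at 408, 345, 253, and 244 CPM and fell, log2 change -0.63 ± 0.13 (SE), edgeR adjusted p = 0.00872, with both CCI libraries below both sham libraries. Without Male-Sham it was not called. In neurons *Glul* rose (1.00 ± 0.07 (SE), edgeR adjusted p = 4.73e-05), and the difference between the classes was -1.70 ± 0.14 (SE), edgeR adjusted p = 9.70e-25 and was called in 7 of 7 alternatives. *Slc1a2*, a glutamate transporter, was at 27.3, 37.5, 65.8, and 60.7 CPM and rose (log2 change 0.94 ± 0.24 (SE), edgeR adjusted p = 0.0398). It lost its call without Male-Sham, without Male-CCI, and after subtraction of expected neuronal UMIs. *Kcnj10*, the Kir4.1 potassium channel of SGCs, was at 266, 279, 347, and 317 CPM and *Gja1*, connexin 43, at 99.3, 120.5, 140.5, and 127 CPM, and neither was called (edgeR adjusted p = 0.379 and 0.533).

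Secreted and matrix genes were mostly not called. Of 17 tested genes of the list *Apod*, a lipid carrier of reactive glia, alone rose (1.18% over all genes). It was at 28.0, 41.0, 136, and 79.9 CPM, log2 change 1.62 ± 0.27 (SE), edgeR adjusted p = 0.00802, and with the 20% mitochondrial limit it lost its call. The neurotrophic factor genes *Gdnf*, *Cntf*, and *Lif* had at most 1 UMI in members of a library. The 6 genes of the fibroblast list summed to 258, 321, 500, and 414 CPM and were found in 153, 171, 101, and 117 members. All 4 tested had a log2 change above 0, as did 4163 of all 8369 genes tested, and their median was 0.77. Of these 4 the collagen genes *Col1a2* (208, 234, 339, and 325 CPM) and *Col3a1* (25.8, 21.0, 48.3, and 56.2 CPM) rose (1.18% over all genes). *Pdgfra*, another gene of the list, had 0, 0, 1, and 0 UMIs. *Col1a2* lost its call without Male-Sham, and *Col3a1* without Female-Sham or Female-CCI. *Col16a1*, named after its value was seen, was at 56.8, 63.7, 186, and 148 CPM and rose, log2 change 1.43 ± 0.18 (SE), edgeR adjusted p = 0.000161. *Hspa5*, the main chaperone of the endoplasmic reticulum and also named after its value was seen, was at 168, 176, 351, and 357 CPM and rose, log2 change 1.00 ± 0.13 (SE), edgeR adjusted p = 0.000167. They were called in 14 of 14 and 15 of 15 alternatives, counting only those that gave the gene an adjusted p.

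Further genes of the rule for the largest changes were no part of these groups. *Nr1d1*, the circadian repressor REV-ERB alpha, was at 3.03, 3.49, 29.3, and 22.2 CPM and rose (log2 change 2.90 ± 0.50 (SE), edgeR adjusted p = 0.00281), and in neurons its log2 change was 0.46. *Aspa*, which cleaves N-acetylaspartate, was at 255, 199.9, 114, and 124 CPM and fell, log2 change -0.97 ± 0.15 (SE), edgeR adjusted p = 0.000911. *Mt3*, a metallothionein, was at 864, 862, 416, and 371 CPM and fell, log2 change -1.17 ± 0.11 (SE), edgeR adjusted p = 4.41e-06, with each CCI library below each sham library. The log2 change of *Mt3* in neurons was -1.17, and 19.8% of its UMIs in members were expected from neurons. *Mt1* and *Mt2*, the stress-induced metallothioneins, were at 2821, 4227, 1559.7, and 2133 CPM and 227, 298, 187, and 179 CPM and not called, though with sex as a block *Mt1* was called. *Txnip* fell (-0.89 ± 0.23) and was called in 6 of 14 alternatives, not without Male-Sham or Male-CCI. Of the respiratory chain and ATP synthase genes, a list chosen after the values were seen, 14 of 71 were called lower (1.10% over all genes) and 0 higher (1.18%), with a median log2 change of -0.31. In neurons 7 of the 71 were called lower (13.0% over all genes), with a median of -0.22. *mt-Nd4l*, a mitochondrial subunit of the chain, was at 772, 881, 424, and 470.4 CPM and fell (log2 change -0.92 ± 0.12 (SE), edgeR adjusted p = 0.000192). Mitochondrially encoded genes, which the list leaves out, went both ways. *mt-Atp8* was also called lower, while *mt-Nd2* and *mt-Nd3*, further subunits of the chain, were called higher. UMIs of mitochondrially encoded genes were used to choose the members, and that limit removed a larger share of CCI cells. The tests of *mt-Nd4l*, *mt-Atp8*, *mt-Nd2*, and *mt-Nd3* therefore cannot separate a change with CCI from the choice of cells. These genes kept their calls with the 20% mitochondrial limit, but that limit counts their UMIs too.

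The remaining genes of the largest glial changes had smaller counts. *Prrx1*, a mesenchymal homeobox gene, was at 5.31, 3.49, 20.5, and 19.2 CPM and rose, but lost its call without any 1 of the 4 libraries. The gene model *Gm8797* was at 8.34, 4.37, 36.6, and 29.6 CPM and rose (log2 change 2.30 ± 0.40 (SE), edgeR adjusted p = 0.00383). *Pttg1*, securin, was at 61.4, 58.5, 24.9, and 28.1 CPM and *Lyrm4*, an iron-sulfur cluster factor, at 78.8, 88.2, 33.7, and 48.8 CPM, and both fell (-1.21 ± 0.25 and -1.05 ± 0.23 on the log2 scale). Both lost their call without Male-CCI, with log2 changes of -1.11 and -0.79. *Fmc1*, an assembly factor of ATP synthase, was at 207, 181, 126, and 74.0 CPM and fell (log2 change -0.99 ± 0.18 (SE), edgeR adjusted p = 0.007), with each CCI library below each sham library. *Runx1t1* was at 64.4, 53.3, 24.9, and 31.1 CPM and fell, and *Cd74*, the invariant chain of antigen-presenting cells, was at 133, 73.3, 42.4, and 53.3 CPM, from 7, 4, 2, and 5 cells, and fell. Both lost their call without Male-Sham, *Runx1t1* also without Male-CCI, and they were called in 9 of 14 and 7 of 13 alternatives. Of the cell cycle list 0 of 4 tested genes were called by edgeR, and of the myelinating and non-myelinating Schwann cell lists 0 of 5 and 0 of 4. DESeq2 called 0 of them, and 1 gene, of the myelinating list, had an unadjusted edgeR p under 0.05.

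Mainly neuronal genes formed a separate group. Of 379 genes with 50% or more expected neuronal UMIs 7 rose and 18 fell (6.60% called, against 2.28% over all genes). Their median log2 change was -0.43, and the neuronal fraction was lowest in Male-CCI. *Sprr1a*, an injury gene of neurons, was at 2.27, 2.62, 57.1, and 91.7 CPM in members and rose, log2 change 4.83 ± 0.42 (SE), edgeR adjusted p = 1.09e-06, and in neurons its log2 change was 4.42. Its expected neuronal UMIs exceeded those found, and it lost its call once they were subtracted. So did *Gal* (49.3, 42.8, 136, and 229 CPM), *Gap43*, and *Sox11*. *Sox11* also lost its call without Male-Sham, Female-Sham, or Female-CCI. Of 16 neuronal markers tested *Snap25* and *Elavl4* fell (1.10% over all genes) and 0 rose (1.18%), with a median log2 change of -0.58. *Snap25* was at 112, 97.8, 32.2, and 48.8 CPM. *Elavl4* lost its call without Male-Sham or Male-CCI.

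Of 12 tested injury genes of neurons 6 rose (1.18% over all genes), the 4 above and 2 with under 20% expected neuronal RNA. *Chl1*, a cell adhesion molecule, was at 133, 113, 249, and 228 CPM with 6.14% of UMIs expected from neurons, and it rose, log2 change 0.91 ± 0.14 (SE), edgeR adjusted p = 0.000868. It was called in 14 of the 14 alternatives that gave it an adjusted p. It rose more in neurons, at a log2 change of 2.47, and the difference was -1.64 ± 0.16 (SE), edgeR adjusted p = 6.89e-19, called in 6 of 7 alternatives and not without Male-Sham. *Tnfrsf12a*, the receptor of TWEAK, was at 9.85, 8.73, 32.2, and 48.8 CPM with 15.1% expected from neurons and rose (log2 change 2.07 ± 0.37 (SE), edgeR adjusted p = 0.00383), but it too lost its call once expected neuronal UMIs were subtracted. *Atf3*, an injury gene of neurons, was at 84.9, 288, 77.5, and 290.0 CPM in members and was not called (edgeR adjusted p = 0.991), against a log2 change of 2.31 in neurons. The difference for *Atf3* was not called either (edgeR adjusted p = 0.616).

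**Figure D3:**
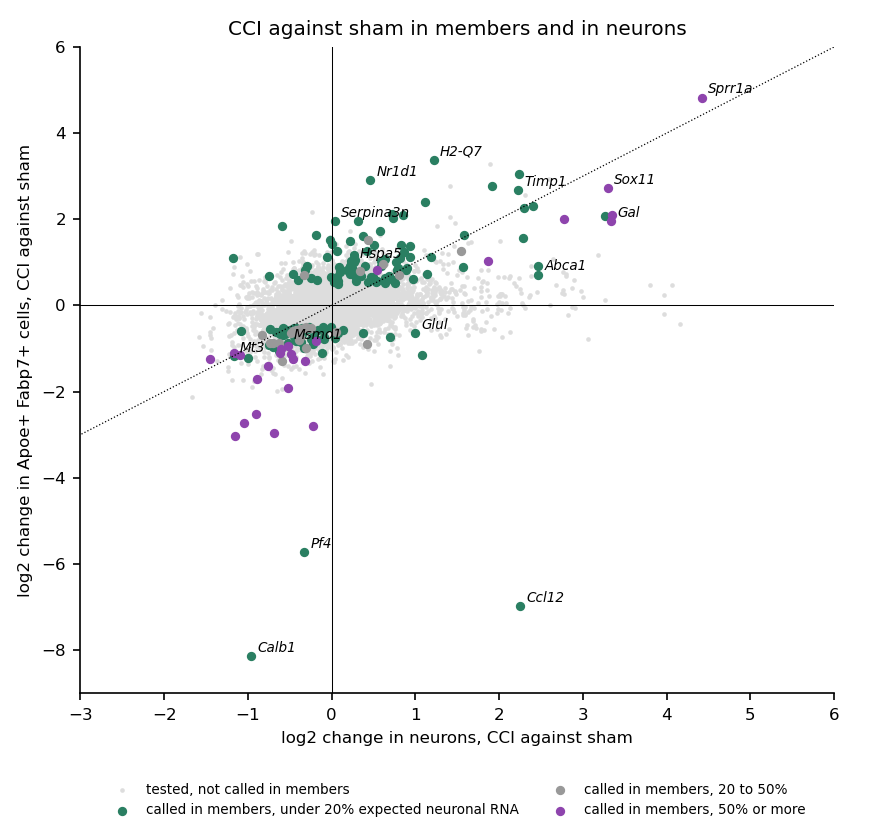
Each point is a gene, with its log2 change of CCI against sham in neurons on the x axis and in members on the y axis, and genes called in members are coloured by their expected neuronal RNA. *Serpina3n* lies near 0 on the neuronal axis, *Glul* has opposite signs on the 2 axes, and *Sprr1a* lies near the line of equal change.

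The change in members differed from that in neurons for 656 of 16737 genes (3.92%), 163 with a higher change in members (0.974%) and 493 with a lower one (2.95%). The low count filter of this fit let a gene enter through neurons alone. In the fit of members only 8369 genes passed, so many of the 16737 had few UMIs in members. Of the 139 glial genes called in members, 56 were called in the same direction in neurons, where 15.5% of all genes were called higher and 13.0% lower. For the difference 42 of the 139 were called (3.92% over all genes). That fit used the same member sums that chose the 139, so the 2 shares cannot be compared. The count for the difference fell to 24 without Male-Sham and 22 without Female-Sham. The genes with the largest differences had few UMIs: *C3* had 0, 0, 8, and 0 UMIs, all in 1 cell, and *Zfp105* 0, 0, 2, and 6 UMIs.

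Immediate early and heat shock genes, which respond to dissociation, were not called with CCI in the fit without sex, and separated the sexes. Of 22 tested genes 0 were called by edgeR and 0 by DESeq2, 3 had an unadjusted edgeR p under 0.05, and the median log2 change was -0.21. In both sexes 12 of the 22 were lower in CCI than in sham, against 26.4% of all genes tested, and 4 were higher, against 33.6%. With sex as a block 2 were called lower, *Dusp1*, a MAP kinase phosphatase at 157, 247, 98.0, and 155 CPM, and *Btg2*, an antiproliferative gene at 227, 366, 169.7, and 216 CPM, and 10 genes of the list were lower at an unadjusted p under 0.05 in that fit. Both female libraries lay above both male libraries for 15 of the 22, against 10.3% of all genes tested, and the reverse held for 0 of the 22, against 17.9%. *Atf3* had the pattern described above, with both female values more than 3 times the male values. *Fos* was at 2529.8, 4052, 2076, and 2874 CPM, *Zfp36*, which destabilizes mRNA, at 289, 621, 183, and 533 CPM, and the heat shock cochaperone *Dnajb1* at 374, 762, 309, and 564 CPM. *Hspa1a* and *Hspa1b* are near-identical copies. Each sex and surgery was 1 library, so sex and the handling of libraries cannot be told apart.

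**Figure D4:**
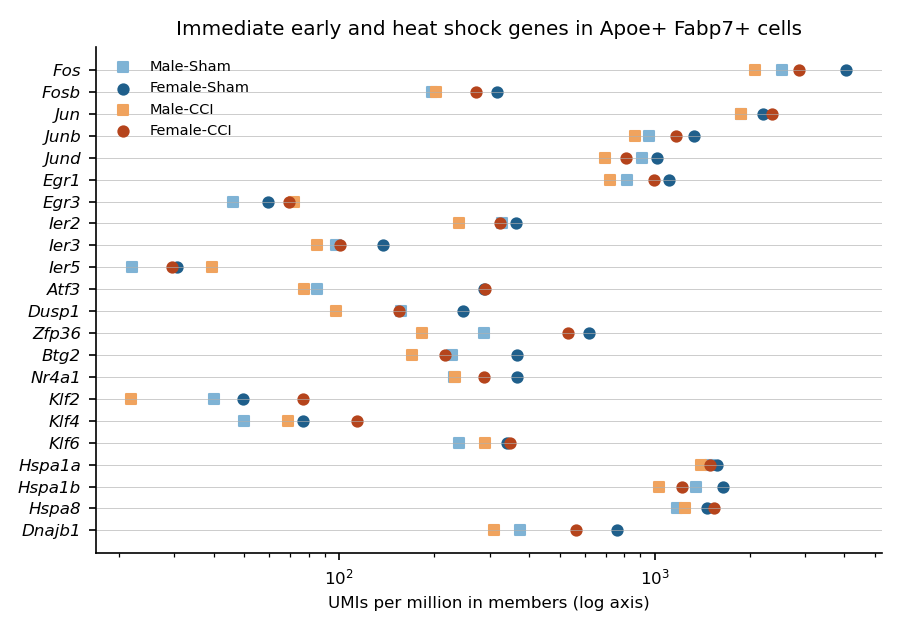
Members' CPM (log axis) of immediate early and heat shock genes in the 4 libraries, with squares for male and circles for female libraries. Female libraries lie to the right of male ones for 15 of 22 genes, including *Atf3*, *Zfp36*, and *Dnajb1*.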

How the data were processed

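The data were 4 single-cell libraries made with a 10x 3' kit. Reads were aligned to mm10 by the authors with Cell Ranger, version 2.1.1 per the submitters' processing notes and 3.0.2 in the header of the matrices, and used Seurat. The matrices hold UMI counts as deposited by the authors, per gene (31053 genes) and cell barcode, and were not normalized. No reads were aligned here. UMI counts were summed over the members, and separately over the neurons, of each library. edgeR 4.0.16 (limma 3.58.1, R 4.3.3) tested CCI against sham after filterByExpr removed low counts and TMM set the scaling, with the robust quasi-likelihood fit and surgery as the only term. The difference between members and neurons was the interaction of cell class and surgery, with library as a block. Benjamini-Hochberg adjustment of p-values ran over all genes of a fit. The members, the gene lists, and the tests were chosen with earlier results of these data known.

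Expected neuronal UMIs of a gene were the neuronal fraction times its share of neuronal UMIs times the members' UMIs. Genes named were those of the lists, the 20 most abundant genes at 10 or more times their neuronal CPM, the 12 largest rises and 12 largest falls of called glial genes, the 5 largest rises and falls of mainly neuronal genes, and the 5 largest differences in each direction, and exceptions are said to be such. Per-sex directions used 5 CPM added. Folds against 0 UMIs used a floor of 3 UMIs over the group, and intervals are 95% exact intervals of counting error. Since mice were pooled, the spread between animals was not measured.

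On simulated data for members (8062 genes) edgeR called 48.5% of genes changed by 1 on the log2 scale, 92.9% of those changed by 2, and 2 unchanged genes. DESeq2 called 15.2% and 68.7%. Alternatives were DESeq2 1.42.0, RLE scaling, all genes kept whatever their counts, sex as a block, subtraction of expected neuronal UMIs (limma on log2 CPM with 10 added), other limits on genes, *Apoe*, and *Fabp7*, members over 10000 UMIs or 100 CP10K of neuronal genes left out, and each library left out. Leaving out members over 10 CP10K of immune genes, a mitochondrial limit of 20%, the recount of the lists, and the test of the share were added later, with the data seen. The alternatives counted for a gene are those that gave it an adjusted p, and DESeq2 gave an adjusted p to 72 of the 191 genes called in members. Python 3.11.15 (numpy 2.4.6, pandas 2.3.3, scipy 1.17.1) was used for the other steps. Gene positions are from GENCODE M21. Some genes of the lists and of the profile are not reported here by name.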

Additional observations from a re-analysis of the deposited data

How the results depend on the processing

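Counts of called genes depended on the fit. Against 191 genes called in members, 336 were called with no filter on low counts, 43 with DESeq2 (38 shared, of 72 main calls that DESeq2 gave an adjusted p), and 66 after subtraction of expected neuronal UMIs, and against 139 glial genes the counts were 228, 33, and 52. Leaving out 1 library gave 181 to 424 and 124 to 269. The lipid genes called lower numbered 2 with DESeq2, 2 after subtraction, and 2 to 7 with 1 library left out. The interferon and MHC genes called higher numbered 10 with no filter, 10 at 600 CP10K of *Apoe* and 60 of *Fabp7*, 10 without members over 100 CP10K of neuronal genes, and 8 to 13 with 1 library left out (11 without Female-Sham). Reactivity genes numbered 7 with no filter, 2 with DESeq2, and 3 to 7 with 1 library left out. Calls in neurons ranged from 4348 to 4798 with 1 library left out, and calls for the difference numbered 278 with DESeq2 and 22 to 629 with 1 library left out (24 without Male-Sham). Sex as a replicate block gave 143 calls (135 shared). The deviations of same-sex libraries had r = 0.016 across 8369 genes. A value over all genes cannot show whether sex paired the libraries for some sets of genes, and the immediate early genes above separated the sexes. The block ended the calls of *Psmb8*, *Ifitm3*, *Lss*, *Slc1a2*, *Abca1*, *Col3a1*, *Prrx1*, *Txnip*, and *Elavl4* among the genes above. Where not said above, subtraction ended the calls of *Gm4951*, *Tap1*, *Prrx1*, *Col1a2*, *Col3a1*, *Txnip*, *Pttg1*, *Lyrm4*, *Fmc1*, *Runx1t1*, *Cd74*, *Ccl12*, *Snap25*, and *Elavl4*. After subtraction the log2 change turned for *Gal* (-0.30), *Ppp1r1c* (0.46), *Ttll7* (0.40), *Fxyd2* (0.35), and *Nrn1* (0.47). The share of members was 4.40% (Male-Sham), 2.65% (Male-CCI), and 2.48% (Female-CCI) at 600 and 60 CP10K, 6.52% (Male-Sham), 5.35% (Female-Sham), and 3.93% (Female-CCI) at 150 and 15 CP10K, 2.25% (Female-Sham, then the lowest) and 2.48% (Female-CCI) with 1500 genes, and 4.24% (Male-CCI) and 3.97% (Female-CCI) with the 20% limit. The neuronal fraction of Male-Sham, Female-Sham, and Female-CCI was 5.73%, 6.51%, and 6.08% at 600 and 60 CP10K, 6.63%, 6.84%, and 6.70% without members over 10000 UMIs, and 6.88%, 6.75%, and 6.55% without members over 100 CP10K of neuronal genes, and 12.8% in Female-Sham with 1500 genes. Why these counts moved was not tested, other than that fewer libraries or genes entered some fits. With 117 to 279 cells a library, genes at a few UMIs could not be tested, and a log2 change of 1 was often missed in simulation.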
